A study of Mus musculus with 3 samples.

Results

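The myeloid C-type lectins were followed across monocyte subsets, dendritic cells and neutrophils of mouse blood. The members are 7 genes, Clec4d, Clec4e, Clec7a, Clec12a, Clec4a1, Clec4a2 and Clec4a3, and were taken by their symbol. Of these 7 genes, 6 matched a row among the 32285 genes of the tables, whereas Clec7a (Dectin-1) matched none by symbol or identifier and was not analysed here. PBMCs came from female C57BL/6 mice in 3 groups, young mice of 8 weeks without treatment, aged mice of 16 months without treatment and aged-GA mice of 16 months that received glycyrrhizic acid (GA), a compound of liquorice root, by tail vein injection for 1 month. By the study's methods, control mice were injected with phosphate buffered saline. Each group was 1 droplet-based single-cell library, and the study names several mice per group, which the files do not tell apart. Without replicate libraries no test was run, a difference between groups cannot be told apart from a difference between libraries, and intervals (95%) cover counting error only.

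C-type lectin receptors of myeloid cells bind sugars, glycolipids and products of damaged cells at the cell surface. Clec4d (MCL) and Clec4e (Mincle) are activating receptors that pair with the adaptor Fcer1g and pass the signal to the kinase Syk and the complex of Card9, Bcl10 and Malt1, which leads to cytokine expression. Clec12a (MICL) and Clec4a2 (DCIR1) carry an inhibitory motif that recruits phosphatases such as Ptpn6, and Clec4a1 (DCIR4) and Clec4a3 (DCIR3) are close relatives of Clec4a2.

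After filtering, 8851 young, 10238 aged and 12648 aged-GA cells were kept, with 48249945, 53770440 and 75832322 UMIs (unique molecular identifiers, 1 for each RNA molecule captured). Cells were gated by 8 marker genes per class, none of which was a C-type lectin. The classical monocyte gate (markers such as Ly6c2 and Ccr2) held 3 young, 706 aged and 115 aged-GA cells, and the nonclassical gate (Ace, Treml4) held 47, 432 and 188. Neutrophils (Csf3r, Cxcr2) were divided at 1% of UMIs from the granule genes Ngp, Camp and Ltf into mature neutrophils, with 8 young, 703 aged and 470 aged-GA cells, and granule-rich neutrophils, with 5, 71 and 45. Conventional dendritic cells (cDC) numbered 0, 23 and 9, and plasmacytoid dendritic cells (pDC) 0, 4 and 5. By the gating rule each gate is bound to hold its own markers, so their levels are no separate check of the gates. All 8 neutrophil markers were found in mature neutrophils, at a sum of 24129 CPM in aged mice and 15917 CPM in aged-GA mice. Classical monocytes had 566 and 613 CPM of them. The cDC gate also held classical monocyte markers. Its 8 markers summed to 1474 CPM in aged mice beside 2662 CPM of classical monocyte markers, and to 1201 CPM beside 3418 CPM in aged-GA mice. The classical markers summed to 4120 and 3421 CPM in aged and aged-GA pDC, and to 4473 and 5330 CPM in granule-rich neutrophils. Their sum is therefore no measure of how clean a gate was. A level is given as CPM, the counts per 1e6 UMIs of the cells in a gate, and was compared between gates or libraries for the same gene, not between genes. Of gated myeloid cells, 3 barcodes were shared by the aged and aged-GA libraries and 0 by the other pairs.

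**Figure D1:**
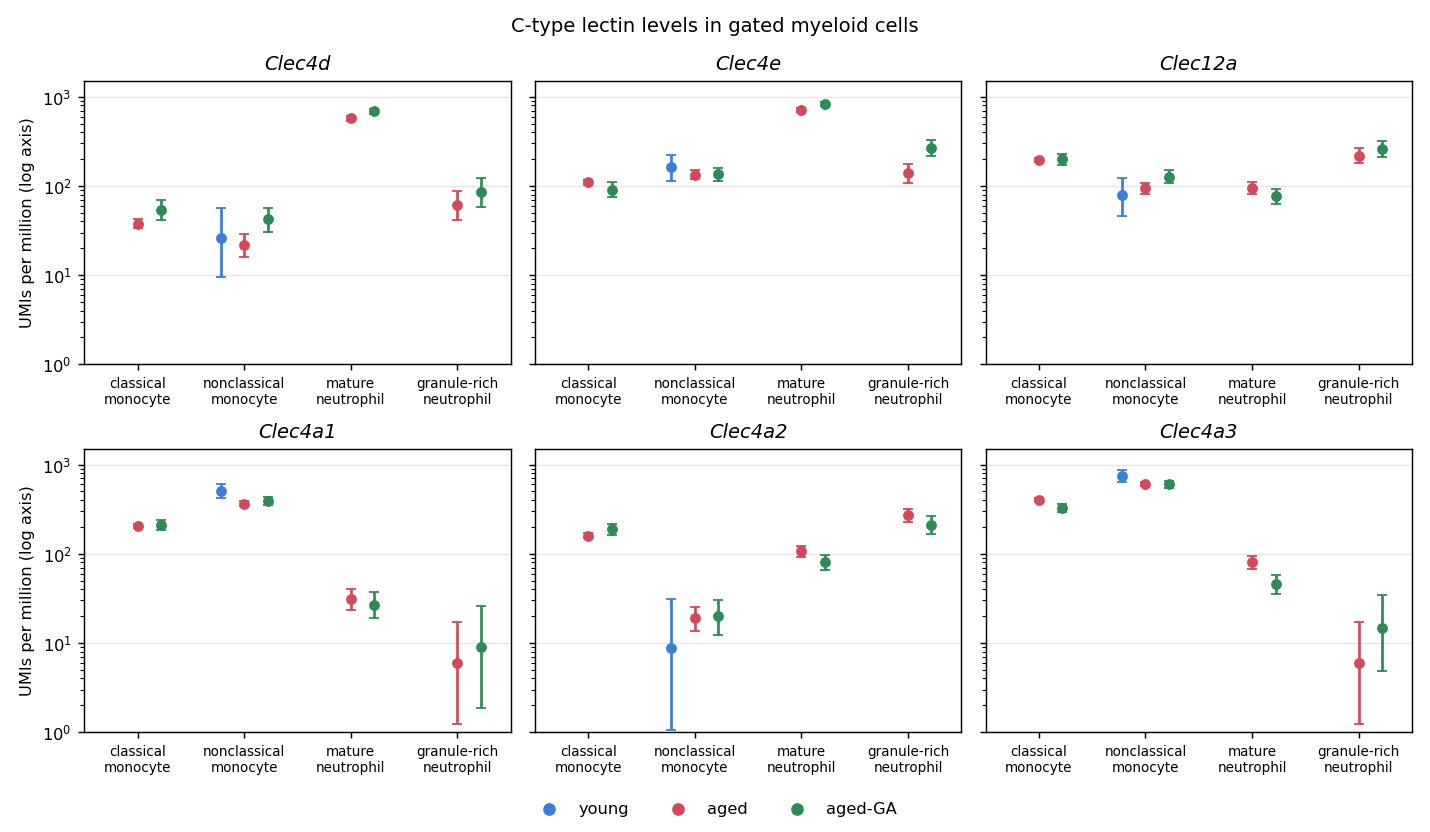
Levels of the 6 measured members in 4 gates (CPM, log axis), 1 point per library with its 95% Poisson interval; gates with under 20 cells in a library are left out. Clec4d and Clec4e were highest in mature neutrophils (573 and 711 CPM in aged mice), Clec4a1 and Clec4a3 in nonclassical monocytes (366 and 613 CPM), and Clec4a2 was lowest in nonclassical monocytes (18.9 CPM).

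The members of the Clec4 group lie together on chromosome 6. In the GRCm38.p6 build of the RefSeq annotation, Clec4a1 (122921848 to 122934619), Clec4a3 (122952515 to 122969878), Clec4a2 (123122690 to 123143999), Clec4d (123262107 to 123275268) and Clec4e (123281789 to 123289871, on the minus strand) span 368 kb, and Clec12a (129349783 to 129365303) lies 6.06 Mb beyond them. The upstream sequence is shown for 2 pairs of neighbours highest in the same gate in aged and aged-GA mice, Clec4d with Clec4e and Clec4a1 with Clec4a3. Between nonclassical and classical monocytes of aged mice, Clec4e had a log2 ratio of 0.27 (0.08 to 0.47). That interval contains the median of all genes in this comparison, 0.14. Clec4d had -0.78 (-1.28 to -0.36), so Clec4d and Clec4e lay on opposite sides of 0. For each, the 250 bases before the start site are printed 5′ to 3′ on the strand of the gene, from RefSeq (GRCm38.p6), with matches to the PU.1 core (GAGGAA) and the C/EBP motif (TTGNNCAA) in capitals, searched on both strands.
Clec4d, chr6:123261857-123262106, plus strand: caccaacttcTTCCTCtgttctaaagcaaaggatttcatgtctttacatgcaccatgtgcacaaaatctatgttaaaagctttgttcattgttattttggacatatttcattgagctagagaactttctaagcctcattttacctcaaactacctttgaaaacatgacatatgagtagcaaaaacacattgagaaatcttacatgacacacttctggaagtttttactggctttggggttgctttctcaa
Clec4e, chr6:123289872-123290121, minus strand: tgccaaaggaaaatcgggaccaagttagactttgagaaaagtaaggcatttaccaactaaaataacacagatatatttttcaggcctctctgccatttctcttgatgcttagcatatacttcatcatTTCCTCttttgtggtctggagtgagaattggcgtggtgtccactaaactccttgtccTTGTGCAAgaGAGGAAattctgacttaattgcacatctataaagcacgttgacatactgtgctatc
Clec4a1, chr6:122921598-122921847, plus strand: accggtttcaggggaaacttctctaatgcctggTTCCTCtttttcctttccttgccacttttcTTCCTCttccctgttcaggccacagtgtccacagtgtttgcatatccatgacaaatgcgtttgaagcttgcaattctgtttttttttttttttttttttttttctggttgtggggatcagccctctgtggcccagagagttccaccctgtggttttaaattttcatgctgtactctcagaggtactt
Clec4a3, chr6:122952265-122952514, plus strand, first of 2 annotated starts: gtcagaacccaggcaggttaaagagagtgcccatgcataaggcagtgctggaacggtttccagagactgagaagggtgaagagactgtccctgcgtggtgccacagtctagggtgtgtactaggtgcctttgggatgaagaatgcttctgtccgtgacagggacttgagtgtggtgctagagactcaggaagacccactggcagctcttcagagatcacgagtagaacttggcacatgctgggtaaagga

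The Clec4e window held 2 PU.1 core matches and 1 C/EBP match, the Clec4d window 1 PU.1 core match and the Clec4a1 window 2. Of the members not printed, Clec12a also had 2 PU.1 core matches and 1 C/EBP match. Clec7a had 1 PU.1 core match at each of its annotated starts, and Clec4a2 had no match to either motif. The window of the first Clec4a3 start held none, and that of its second start held 1 PU.1 core match. Windows of the same length held the PU.1 core in 23.3% and the C/EBP motif in 5.65% of 32851 RefSeq promoters, and an AP-1 motif (TGANTCA), found in 6.75%, had a match in Clec12a and in no other member. The longest run shared by the windows of different members was 17 bases (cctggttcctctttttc), between Clec4a1 and the second start of Clec4a3. These matches describe letters in a window and say nothing of binding. The libraries read the 3′ end of transcripts, where the members share little sequence. Of all windows of 90 bases in the last 500 bases of their transcripts, 0 were shared with another gene for 5 members, and 3.42% were shared with Clec4a4 for Clec4a2.

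Clec4d and Clec4e, the activating pair, were higher in mature neutrophils than in monocytes. Clec4d stood at 573 CPM in aged mice and 686 CPM in aged-GA mature neutrophils, against 37.7 and 53.9 CPM in classical monocytes and 21.6 and 42.1 CPM in nonclassical monocytes. The log2 ratio of mature neutrophils over classical monocytes was 3.89 (3.73 to 4.12) in aged and 3.64 (3.29 to 4.07) in aged-GA mice. Clec4e stood at 711 and 825 CPM in mature neutrophils, against 110 and 91.1 CPM in classical and 133 and 135 CPM in nonclassical monocytes. Its ratio over classical monocytes was 2.68 (2.56 to 2.82) in aged and 3.16 (2.89 to 3.48) in aged-GA mice. For both genes mature neutrophils were far above either monocyte gate, while the 2 monocyte gates lay within 2-fold of each other in aged and aged-GA mice. Granule-rich neutrophils had 61.2 and 86.3 CPM of Clec4d and 138 and 268 CPM of Clec4e in aged and aged-GA mice. No ratio of granule-rich neutrophils over monocytes was computed, so no likeness of these levels is claimed. In young mice only 8 mature neutrophils were gated, and they gave 1196 CPM of Clec4d (749 to 1810, from 22 UMIs) and 2283 CPM of Clec4e (1645 to 3086, from 42 UMIs).

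Across all members, 2 of 6 were higher by 2-fold or more in mature neutrophils than in classical monocytes, where 11.7% of 8260 genes were in aged mice and 15.4% of 5049 genes in aged-GA mice. In the other direction 3 members in aged and 4 in aged-GA mice were lower by 2-fold or more, beside 40.9% and 30.7% of genes. The median log2 ratio of all genes was itself below 0, at -0.68 (aged) and -0.36 (aged-GA).

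Cell by cell, Clec4d and Clec4e were found in many mature neutrophils. With each cell thinned to 1000 UMIs, Clec4d was found in 44.6% of aged (40.9 to 48.5) and 52.0% of aged-GA (47.3 to 56.6) mature neutrophils, and in 0.137% and 0.083% of T cells. Without thinning the neutrophil shares were 72.5% and 75.7%, and those of T cells 0.549% and 0.526%, with median UMIs per cell of 2175 and 2351.5 in mature neutrophils and 4659.5 and 5920 in T cells. Clec4e was found in 46.4% and 52.2% of thinned mature neutrophils. Both transcripts were found together in 22.3% of aged cells, where the product of the separate shares is 20.7%, and in 27.9% of aged-GA cells, where it is 27.1%. The share with both was slightly above the product in each library.

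Within neutrophils, both genes were lower where the granule genes were higher. In aged mice Clec4d went from 602 CPM in cells with under 0.1% of UMIs from Ngp, Camp and Ltf to 276, 152 and 12.2 CPM in the bins of 0.1 to 1%, 1 to 5% and 5% or more. Clec4e went from 744 CPM to 372, 185 and 113 CPM over the same bins. In aged-GA mice Clec4d went from 706 to 318, 282 and 33.9 CPM and Clec4e from 837 to 595, 297 and 260 CPM, with 13 and 12 cells in the middle bins. The log2 ratio of mature over granule-rich neutrophils was 3.21 (2.71 to 3.79) for Clec4d and 2.35 (2.01 to 2.73) for Clec4e in aged mice, and 2.98 (2.46 to 3.58) and 1.62 (1.31 to 1.95) in aged-GA mice. The median of all genes was 0.64 in aged and 0.57 in aged-GA mice in this comparison.

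The inhibitory members went the other way. Clec4a2 stood at 107 CPM in mature and 273 CPM in granule-rich neutrophils of aged mice, a ratio of -1.34 (-1.67 to -1.03), and at 80.7 and 211 CPM in aged-GA mice, a ratio of -1.38 (-1.83 to -0.94). Clec12a stood at 95.1 and 219 CPM in aged mice, a ratio of -1.20 (-1.55 to -0.85), and at 77.0 and 262 CPM in aged-GA mice, a ratio of -1.75 (-2.19 to -1.34). Thus 2 of 6 members in aged mice, and 2 of 5 with enough UMIs in aged-GA mice, were lower by 2-fold or more in mature than in granule-rich neutrophils, as were 4.19% and 5.38% of genes. The members higher by 2-fold or more were 4 of 6 in aged and 3 of 5 in aged-GA mice, beside 34.1% and 32.2% of genes. They were Clec4d, Clec4e and Clec4a3 in both libraries, and Clec4a1 in aged mice. Clec4a1 and Clec4a3 rested on 3 granule-rich UMIs each in aged mice, and Clec4a3 on 5 in aged-GA mice.

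**Figure D2:**
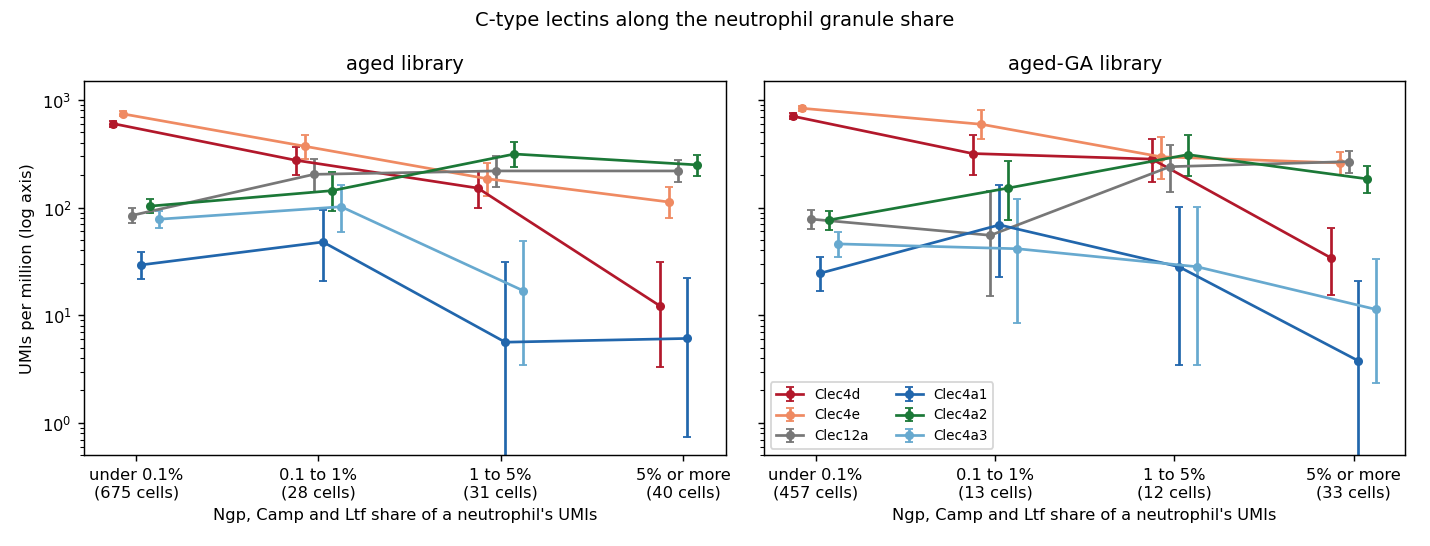
Levels of the 6 measured members (CPM, log axis, 95% Poisson intervals) in neutrophils binned by the share of their UMIs from Ngp, Camp and Ltf, for the aged and aged-GA libraries; a bin with 0 UMIs has no point. From the lowest to the highest bin in aged mice Clec4d went from 602 to 12.2 CPM, whereas Clec4a2 went from 103 to 250 CPM and Clec12a from 84.5 to 219 CPM.

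Clec4a2, the inhibitory receptor DCIR1, separated the monocyte subsets most widely among the members. It stood at 160 CPM in aged mice and 188 CPM in aged-GA classical monocytes, and at 18.9 and 20.1 CPM in nonclassical monocytes, where young mice had 8.70 CPM from 2 UMIs. The log2 ratio of nonclassical over classical monocytes was -3.01 (-3.56 to -2.64) in aged and -3.17 (-3.95 to -2.58) in aged-GA mice. The level followed the balance of the monocyte markers. In aged mice it was 168 CPM in cells with an excess of 4 or more classical markers, 104 CPM with 1 to 3, and 30.3 and 16.2 CPM in cells with an excess of 1 to 3 and of 4 or more nonclassical markers. In mature neutrophils of aged mice its ratio over classical monocytes was -0.58 (-0.81 to -0.36), and it became 0.11 when libraries were scaled to the median of all genes, so that no direction is given there. In aged-GA mice the ratio was -1.21 (-1.57 to -0.89), lower by 2-fold or more, and -0.85 with that scaling.

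In aged mice Clec12a had 197 CPM in classical monocytes beside 219 CPM in granule-rich neutrophils. The aged-GA values were 198 and 262 CPM. S100a8 and S100a9 took a far larger part of the UMIs in granule-rich neutrophils. For aged mice these were 199364 and 184851 CPM there, against 783 and 696 CPM in classical monocytes. The aged-GA values were 160564 and 169099 CPM, against 1346 and 1432 CPM. This pair of gates was not compared with scaling to the median of all genes, so no likeness of Clec12a levels is claimed. Nonclassical monocytes had 78.3 CPM in young, 94.1 CPM in aged mice and 127 CPM in aged-GA mice, and their ratio over classical monocytes was -1.06 (-1.29 to -0.86) in aged and -0.63 (-0.96 to -0.32) in aged-GA mice. Mature neutrophils were lower than classical monocytes, with a ratio of -1.05 (-1.29 to -0.83) in aged and -1.35 (-1.71 to -1.02) in aged-GA mice, and with scaling to the median of all genes the ratios were -0.36 and -0.99.

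Clec12a was also found in B cells above its level in T cells. B cells had 5.04 CPM in young (3.71 to 6.71), 8.97 CPM in aged (7.51 to 10.6) and 7.04 CPM in aged-GA mice (6.03 to 8.18), whereas T cells had 0.302 (0.138 to 0.574), 1.41 (0.809 to 2.30) and 0.603 CPM (0.329 to 1.01). The intervals of B and T cells did not overlap in any library. After thinning to 1000 UMIs it was found in 0.515%, 0.688% and 0.719% of young, aged and aged-GA B cells, against 0 of 5430 young T cells, which allows a share of up to 0.0552%, and 0.183% and 0.055% of aged and aged-GA T cells; unthinned shares were 1.80%, 3.07% and 2.98% against 0.129%, 0.733% and 0.387%. The other 5 members stood at 0 to 2.70 CPM in B cells. Median UMIs per cell were 3427, 3070.5 and 3782 in B cells and 5072, 4659.5 and 5920 in T cells, so the higher shares were in the shallower class.

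Dendritic cells were few. Clec12a had 88.7 CPM in aged cDC (56.2 to 133, 23 UMIs) and 75.7 CPM in aged-GA cDC (30.4 to 156, 7 UMIs), and the other 5 members had 2 to 11 UMIs in aged cDC and 1 to 16 in aged-GA cDC. In pDC, Clec12a had 7 UMIs in 4 aged and 6 UMIs in 5 aged-GA cells (179 and 95.9 CPM), beside 0 or 1 UMI of each other member. Between the libraries the Clec12a intervals overlapped in both dendritic gates. Clec4a3 in cDC had 34.7 CPM in aged mice (15.9 to 65.9, 9 UMIs) and 173 CPM in aged-GA mice (98.9 to 281, 16 UMIs), intervals that did not overlap, from 23 and 9 cells. The 8 monocyte markers summed to 929.7 and 1612 CPM in the same cDC, and their part in this difference was not tested.

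Clec4a1 and Clec4a3 were monocyte transcripts with more in nonclassical cells. Clec4a1 stood at 204 and 210 CPM in aged and aged-GA classical monocytes, and at 505, 366 and 391 CPM in young, aged and aged-GA nonclassical monocytes. Clec4a3 stood at 404 and 325 CPM in classical monocytes, and at 748, 613 and 600.0 CPM in nonclassical monocytes. The log2 ratio of nonclassical over classical monocytes was 0.84 (0.71 to 0.96) for Clec4a1 and 0.60 (0.51 to 0.70) for Clec4a3 in aged mice, and 0.90 (0.67 to 1.14) and 0.88 (0.69 to 1.07) in aged-GA mice. These ratios lay above 0 and under 2-fold. Of all 6 members, 0 were higher by 2-fold or more in nonclassical monocytes, beside 9.19% of 8432 genes in aged and 10.5% of 5248 genes in aged-GA mice. Clec4a2 and Clec12a were lower by 2-fold or more in aged mice and Clec4a2 alone in aged-GA mice, beside 7.66% and 5.77% of genes.

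In neutrophils the same 2 genes were scarce. Mature neutrophils of aged mice had 31.0 CPM of Clec4a1 and 80.1 CPM of Clec4a3, and aged-GA mice had 26.9 and 45.8 CPM, where T cells had 1.59 and 1.77 CPM in aged and 0.387 and 0.603 CPM in aged-GA mice. The ratios over classical monocytes were -2.68 (-3.13 to -2.34) and -2.32 (-2.58 to -2.10) in aged mice, and -2.92 (-3.50 to -2.46) and -2.80 (-3.24 to -2.44) in aged-GA mice. The 8 monocyte markers were all found in mature neutrophils too, at sums of 429 and 413 CPM, against 2993 and 3163 CPM in classical monocytes. Their part in the neutrophil values was not tested. Part of the Clec4a3 UMIs sat in few deep barcodes: without the 28 aged and 19 aged-GA barcodes above 3 times the median UMIs, mature neutrophils had 43.7 and 22.1 CPM. Granule-rich neutrophils had 3 UMIs of each gene in aged mice, and 3 of Clec4a1 and 5 of Clec4a3 in aged-GA mice.

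Over 21 groups of gated class and library with at least 20 cells, the genes most like each member were named by Pearson's r of log2(CPM + 1) among 10959 genes. Clec4a1 and Clec4a3 had r = 0.987 with each other, and Csf1r, the receptor that marks monocytes and served as a gate marker, had r = 0.995 with Clec4a3 and 0.983 with Clec4a1. Clec4d was most like Gm34084, Siglece and Ptafr (0.967 to 0.975) and had r = 0.934 with Clec4e, which was most like Slc22a15, Cebpd and Fam217b (0.967 to 0.969). Clec12a was most like Plbd1, Pirb and Csf2ra (0.962 to 0.979), and Clec4a2 most like Thbs1, C3 and Mcemp1 (0.955 to 0.969). The groups share libraries, and 9 of the 21 are B, T or NK cells, so these are descriptions only.

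To see the members after GA treatment, levels were compared within a gate between aged-GA and aged mice, with 1.5-fold as the limit. In classical monocytes 0 of 6 members were past it, beside 5.77% of 8097 genes higher and 5.79% lower. Clec4d went from 37.7 to 53.9 CPM (log2 ratio 0.51, 0.09 to 0.92), Clec4a2 from 160 to 188 CPM (0.23, 0.02 to 0.45) and Clec4a3 from 404 to 325 CPM (-0.31, -0.47 to -0.15). Clec4e (-0.27, -0.58 to 0.03), Clec12a (0.01, -0.20 to 0.21) and Clec4a1 (0.04, -0.17 to 0.24) had intervals that covered 0. Cd74 and Cd209a differed between the libraries in this gate, but not in this gate alone. From aged to aged-GA mice Cd74 went from 708 to 2753 CPM here and from 916 to 1720 CPM in nonclassical monocytes. It went from 311 to 622 CPM in mature and from 37.5 to 71.4 CPM in granule-rich neutrophils. Cd74 is a gene of B and dendritic cells. Classical monocyte barcodes with at least 0.5% of UMIs from it were 31 of 706 in aged and 20 of 115 in aged-GA mice. Cd209a, a lectin of dendritic cells derived from monocytes, stood at 12.0 and 102 CPM in classical monocytes. Its levels were 0 and 25.8 CPM in nonclassical monocytes and 8.01 and 8.72 CPM in mature neutrophils. The 8 cDC markers summed to 397 CPM (aged) and 414 CPM (aged-GA) in the classical gate. Those of pDC reached 159 and 164 CPM, and those of B cells 43.8 and 68.1 CPM. Whether the mixture of cells in the gate differed was not tested. Without the Cd74-high barcodes Clec4d passed the limit, with 39.4 and 62.8 CPM and a ratio of 0.66. Over all alternatives its ratio was 0.22 to 0.66.

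In nonclassical monocytes 1 of 6 members was higher by 1.5-fold or more and 0 lower, beside 4.16% and 3.29% of 6256 genes. This was Clec4d, which went from 21.6 CPM (48 UMIs) to 42.1 CPM (44 UMIs), a ratio of 0.93 (0.34 to 1.58). Clec12a had a ratio of 0.43 (0.11 to 0.76). Those of Clec4e, Clec4a1, Clec4a2 and Clec4a3 lay between -0.03 and 0.10 with intervals that covered 0. After thinning, Clec4d was found in 2.32% of aged (1.12 to 4.23) and 3.21% of aged-GA (1.19 to 6.85) nonclassical monocytes. So few cells held Clec4d after thinning that these shares cannot decide whether its level differed. The 8 neutrophil markers were all found in nonclassical monocytes and summed to 494 CPM in aged mice and 405 CPM in aged-GA mice. In mature neutrophils they summed to 24129 and 15917 CPM, so their level also differed between the libraries in that gate. The part of neutrophil RNA in the Clec4d values was not tested.

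In mature neutrophils 0 members were higher by 1.5-fold or more, beside 7.35% of 4882 genes, and 1 was lower, beside 2.85%. Clec4d and Clec4e were modestly higher, with ratios of 0.26 (0.13 to 0.39) and 0.21 (0.10 to 0.33), where the median of all genes was 0.08. Clec4a2 had -0.40 (-0.75 to -0.06), Clec12a -0.30 (-0.67 to 0.05) and Clec4a1 -0.20 (-0.84 to 0.41). The lower member was Clec4a3, from 80.1 CPM (150 UMIs) to 45.8 CPM (63 UMIs), a ratio of -0.79 (-1.26 to -0.37). This value depended on which barcodes were left out. Leaving out the 6% of cells with the highest doublet scores in each library took 13 aged and 1 aged-GA mature neutrophils. The Clec4a3 levels were then 57.2 and 44.7 CPM and the ratio was -0.35, within the limit. Without the barcodes above 3 times the median UMIs, Clec4a3 was again lower in aged-GA mice, and the number of members past the limit was unchanged.

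In granule-rich neutrophils 1 of 4 members with enough UMIs was higher by 1.5-fold or more and 0 lower, beside 13.9% and 2.71% of 1511 genes. Clec4e went from 138 CPM (70 UMIs) to 268 CPM (90 UMIs), a ratio of 0.95 (0.49 to 1.43), where the median of all genes was 0.19. Clec4d had 0.49 (-0.29 to 1.27), Clec12a 0.26 (-0.16 to 0.67) and Clec4a2 -0.37 (-0.80 to 0.06). Clec4a1 and Clec4a3 had under 50 UMIs over both libraries.

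**Figure D3:**
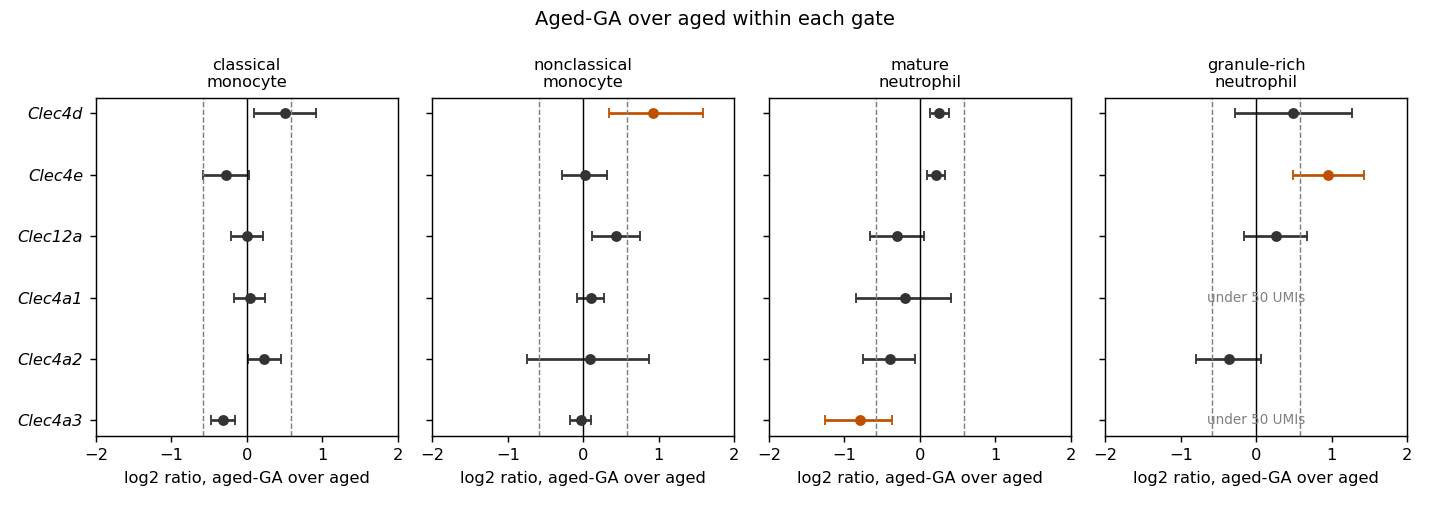
Log2 ratio of aged-GA over aged mice for the 6 measured members in 4 gates, with 95% intervals for counting error; dashed lines mark 1.5-fold and orange points lie past it. The 3 points past the line are Clec4d in nonclassical monocytes (0.93), Clec4a3 in mature neutrophils (-0.79) and Clec4e in granule-rich neutrophils (0.95).

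For aging, only the nonclassical gate held enough young cells. There 0 of the 5 members with at least 50 UMIs were past 1.5-fold in aged over young mice, beside 18.7% of 5455 genes higher and 8.27% lower. Clec4a1 went from 505 to 366 CPM (-0.46, -0.75 to -0.17) and Clec4a3 from 748 to 613 CPM (-0.29, -0.52 to -0.05). After thinning, Clec4a1 was found in 55.3% of young (40.1 to 69.8) and 30.4% of aged (26.1 to 35.0) nonclassical monocytes, and Clec4a3 in 59.6% (44.3 to 73.6) and 50.6% (45.8 to 55.4); without thinning the shares were 80.9% and 75.0%, and 91.5% and 89.6%. The intervals of Clec4e, Clec4d and Clec12a covered 0, at -0.27, -0.26 and 0.26.

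Summed over all kept cells, each member was highest in the aged library. Clec4d had 0.995 CPM in young, 35.5 CPM in aged mice and 21.6 CPM in aged-GA mice, and Clec4a3 had 5.28, 108 and 22.1 CPM. The ratio of aged-GA over aged mice went from -0.71 for Clec4d and -1.09 for Clec4e to -1.83 for Clec12a, -2.02 for Clec4a1, -2.04 for Clec4a2 and -2.28 for Clec4a3, so the neutrophil members were closer to the aged level than the monocyte members. Cells of the classical gate made up 6.90% of aged and 0.909% of aged-GA cells, and mature neutrophils 6.87% and 3.72%. When the aged levels were kept and only the share of UMIs from each class was set to that of aged-GA mice, the ratios were -0.72, -0.88, -1.20, -1.29, -1.37 and -1.35 in the same order. When the shares were kept and only the levels were set, they were 0.21, -0.08, -0.18, -0.19, -0.08 and -0.45. For each member the ratio from the shares alone was farther from 0 than that from the levels alone. The steps do not add up to the whole ratio.

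The cells that held the UMIs differed in the same way. In aged mice 56.3% of Clec4d UMIs and 40.1% of Clec4e UMIs lay in mature neutrophils, and 74.1% of Clec4a3 and 73.4% of Clec4a1 UMIs in the 2 monocyte gates. In aged-GA mice mature neutrophils held 57.5% of Clec4d and 51.7% of Clec4e UMIs, and the monocyte gates 59.3% of Clec4a3 and 59.4% of Clec4a1 UMIs. In young mice B cells held 48.5% of Clec12a UMIs. Barcodes with markers of a lymphoid and a myeloid class together held 8.81% to 12.2% of member UMIs in aged and 19.1% to 23.0% in aged-GA mice, and their part in these values was not tested.

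**Figure D4:**
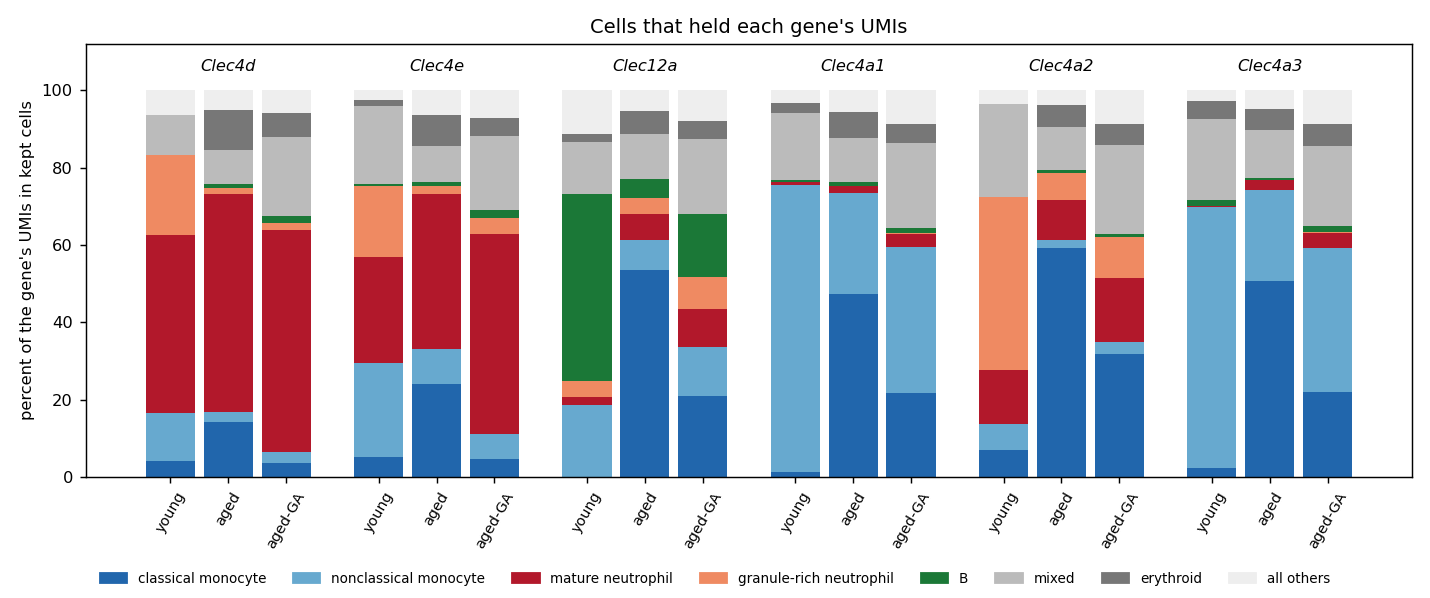
Percent of each member's UMIs in kept cells by the gate that held them, 1 bar per library. Mature neutrophils held 56.3% of Clec4d UMIs in aged mice, the monocyte gates 74.1% of Clec4a3 UMIs, and B cells 48.5% of Clec12a UMIs in young mice.

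The genes that act with these receptors were counted from lists of 17 other C-type lectins, 11 activating signalling genes, 7 inhibitory signalling genes and 9 target cytokines. Fcer1g, the adaptor of Clec4d and Clec4e, was lower in aged-GA than aged mice in classical (-0.26, -0.31 to -0.21), nonclassical (-0.44, -0.49 to -0.39) and mature neutrophil cells (-0.19, -0.26 to -0.13), under 1.5-fold in each. Syk had ratios of 0.16, 0.05 and 0.03 with intervals that covered 0. Of the 10 activating genes measured in each of these gates, Malt1 was past the limit in classical monocytes (0.77) and mature neutrophils (0.80), and none was in nonclassical monocytes. Of all genes, 5.77%, 7.35% and 4.16% were higher past the limit in these gates, in that order, and 5.79%, 2.85% and 3.29% were lower. Of the 7 inhibitory genes, 0 were past the limit in the 3 gates, beside the same shares of all genes. Their list medians in classical monocytes, nonclassical monocytes and mature neutrophils were 0.16, 0.29 and 0.12, beside medians of all genes of 0.04, 0.03 and 0.08.

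Among the 7 target cytokines measured in classical monocytes, 3 were higher by 1.5-fold or more, Il1b (1.66), Ptgs2 (1.78) and Tnf (0.99), beside 5.77% of all genes, and the list median was 0.56 beside 0.04 for all genes. In the same gate S100a8 went from 783 to 1346 CPM and S100a9 from 696 to 1432 CPM, both abundant in neutrophils. The 8 neutrophil markers summed to 566 and 613 CPM in this gate, beside 24129 and 15917 CPM in mature neutrophils of aged and aged-GA mice. Il1b stood at 151 and 481 CPM in classical monocytes, and at 10429.9 and 13796 CPM in mature neutrophils. The part of neutrophil RNA in these values was not tested. In mature neutrophils 3 of 7 target cytokines were higher by 1.5-fold or more, Ccl3 (1.30), Ccl4 (1.28) and Tnf (0.74), beside 7.35% of all genes. The list median there was 0.40 beside 0.08. In nonclassical monocytes 2 of 7 were, Cxcl2 (1.35) and Nlrp3 (0.64), beside 4.16% of all genes, with a median of 0.13 beside 0.03. All 7 cytokines were higher by 2-fold or more in mature neutrophils than in classical monocytes in aged and aged-GA mice. Of all genes, 11.7% and 15.4% were, and the list medians were 2.33 and 3.06 beside -0.68 and -0.36 for all genes. Of 8 other C-type lectins measured in classical monocytes 5 were higher in aged-GA mice, Cd209a (2.98), Mrc1 (1.68), Clec4b1 (1.32), Clec1b (1.08) and Clec10a (0.59), where 5.77% of all genes were. The Cd74-high barcodes given above stand beside this count, and their part in it was not tested. Platelet markers, of a class where Clec1b is a known receptor, summed to 73.0 and 157 CPM in classical monocytes and to 163 and 444 CPM in mature neutrophils, and their part in the Clec1b values was not tested. In nonclassical monocytes 1 of 3 other lectins measured was higher, Clec4n (Dectin-2, which also pairs with Fcer1g; 0.84, 0.09 to 1.68), and 1 was lower, Clec2d (-0.91, -1.84 to -0.15), beside 4.16% and 3.29% of all genes. In mature neutrophils 2 of 5 were higher, Clec1b (1.34, 0.84 to 1.93) and Clec4n (0.89, 0.40 to 1.42), and 0 were lower, beside 7.35% and 2.85%.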

How the data were processed

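PBMC libraries of young, aged and aged-GA mice (1 per group) were mapped by the authors with Cell Ranger, and the deposited values are raw UMI counts, 1 per gene and cell barcode. The file headers name version 5.0.0, whereas the methods name another, and the submitters' processing notes name mm10. A cell was kept if it had 200 genes or more, no more than 90% of the largest gene number, and no more than 7.5% of its UMIs from mitochondrial genes. Each cell took the class with the most of 8 markers detected, at least 3. Monocytes were 1 class in this step, by markers such as Csf1r and Ms4a6c. They were then called classical or nonclassical by which of these marker lists had more genes detected, with no minimum. Monocytes with equal numbers from both lists were set apart as undivided. Ties were left out, except that a tie of monocyte and cDC markers went to cDC, a rule set after gate counts and some member values were seen. Barcodes with 3 markers of both a lymphoid and a myeloid class were set apart as mixed, and barcodes with over 25% haemoglobin UMIs as erythroid.

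UMIs were summed per gate and library, and ratios were log2 of CPM + 1. A gene was counted where both sums together held at least 50 UMIs, and called past 1.5-fold between libraries or 2-fold between gates. Intervals are exact Poisson or binomial (95%). Named genes were the members, the lists, the gate markers and the 3 genes most like each member. Members and lists were chosen with earlier results of these data known. Ratios were tested on simulated data with counting error only and planted folds larger than the 1.5-fold limit. Differences between libraries were not simulated, so this cannot show how reliable the 1.5-fold calls are. Alternatives changed the gates, filters, scaling, pseudocount (10 CPM) and doublets. Scrublet, run in scanpy 1.11.5, marked 498 young, 451 aged and 0 aged-GA cells, so its own calls were not used; the 6% of cells with the highest scores were left out in their place. Analyses used Python 3.11.15, numpy 2.4.6, scipy 1.17.1 and pandas 2.3.3.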

Additional observations from a re-analysis of the deposited data

Results flagged for a closer look

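Clec4a2 lay on opposite sides of 0 in 2 gates when aged-GA mice were set against aged mice, at 0.23 in classical monocytes and -0.40 in mature neutrophils (log2 ratios), with neither interval covering 0. The classical monocyte interval, 0.02 to 0.45, contains the median of all genes in that comparison, 0.04. Both values were within 1.5-fold, each rests on 1 library per group, and the difference between the gates was not tested.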

How the results depend on the processing

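Of 682 member ratios recomputed (62 ratios under 11 alternatives), 638 stayed within the interval of the reported value, 44 moved and 0 of the called ratios changed sign. Clec4d in nonclassical monocytes (0.72 to 1.11) and Clec4e in granule-rich neutrophils (0.76 to 0.95) stayed past 1.5-fold in each alternative. Clec4a3 in mature neutrophils did not, at -0.35 without the top 6% of doublet scores, where 0 members were lower. Without Cd74-high barcodes, 1 member was higher in classical monocytes. In those 2 settings the counts of all genes past 1.5-fold stayed within 1.5-fold of the main counts. With a pseudocount of 10 CPM, 1 member was lower by 2-fold in nonclassical than classical monocytes of aged mice. With median of ratios scaling, 2 members were lower in mature neutrophils than classical monocytes of aged-GA mice. In aged mice Clec12a was no longer lower by 2-fold with that scaling. Shares of all genes were not recomputed for these 2-fold counts, so the counts have no background beside them. Leaving out the top scores, Cd74-high barcodes, deep barcodes and a haemoglobin limit of 50% were chosen after seeing the data.

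Counts of all genes past 1.5-fold, aged-GA over aged, moved with the pseudocount of 10 CPM to 158 higher and 124 lower in classical monocytes, 116 and 81 in nonclassical monocytes and 189 and 67 in mature neutrophils. With a minimum of 1 UMI they were 1686 and 1506, 1943 and 1504, and 2878 and 2462, with 2800 and 2194 in granule-rich neutrophils, and 3959 and 1989 for aged over young nonclassical monocytes. In granule-rich neutrophils scaling without haemoglobin, S100a8 and S100a9 gave 136 and 73, and median of ratios 94 and 92. No paired analysis was possible because each group has 1 library. Depth limits Clec4a1 and Clec4a3 in granule-rich neutrophils, and most members in dendritic cells, where the counting intervals of the libraries overlapped for all members but Clec4a3 in cDC.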

Other observations

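Basophils (markers such as Mcpt8 and Cpa3) held few UMIs of the members, in a small gate of 303361 UMIs in aged mice. Clec4e had 25 UMIs in 118 aged basophils, or 82.4 CPM (53.3 to 122), and 2 UMIs in 29 aged-GA basophils. The aged interval overlapped that of aged classical monocytes (110 CPM, 102 to 118). The other members had 3 to 7 UMIs in aged basophils.

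In Cd74-high barcodes of the monocyte gates, 44 in aged and 33 in aged-GA mice, Clec4e stood at 40.8 and 42.2 CPM and Clec4d at 2.40 CPM (1 UMI) and 18.1 CPM (6 UMIs), whereas Clec4a3 stood at 324 and 350 CPM.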
